A study of Mus musculus with 15 samples.

Results

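The 38 genes described here encode lysosomal enzymes, their protein cofactors and proteins of the lysosomal membrane. They were chosen by name as known lysosomal genes, with the cathepsins and the subunits of the V-ATPase proton pump left out, and they are 38 of the 54532 genes in the bulk count table. Each of the 38 symbols was found once in the bulk table and once in both single-cell matrices. By role they are 13 glycosidases and enzymes of glycoprotein breakdown, 4 sulfatases, 4 lipid hydrolases, 4 lipid transfer and activator proteins, 4 genes of protein turnover and 9 membrane proteins.

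Gene expression was measured after a tamoxifen-induced deletion of Atg7, which encodes an enzyme that conjugates ubiquitin-like proteins when autophagosomes form. Bulk RNA-seq covered forebrain hemispheres without cerebellum of 5xFAD mice, which carry human familial Alzheimer transgenes and form amyloid plaques. It compared 6 control libraries (ATG7FF with 5xFAD) with 7 libraries of the conditional knockout, called cKO here (Cx3cr1CreER with ATG7FF and 5xFAD). Single-cell RNA-seq covered microglia without amyloid transgenes, isolated on a Percoll gradient and sorted as CD45-low, CD11b-high cells, in 1 library pooled from 3 control forebrains (ATG7FF) and 1 pooled from 4 cKO forebrains (Cx3cr1CreER with ATG7FF). All mice were C57BL/6, all carried the floxed Atg7 alleles, and all were given tamoxifen (1.5 mg) when 2 months old. Tissue was taken at 8 months. Cx3cr1CreER is a knock-in at the Cx3cr1 locus, which is active in microglia and other brain macrophages. Only cKO mice carried it, so effects of the Cre allele and of the deletion cannot be told apart.

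Lysosomes break down what autophagy, phagocytosis and endocytosis deliver to them, each hydrolase removing a particular sugar, sulfate, lipid or peptide bond at acid pH. Loss of a single enzyme or membrane protein of this kind can cause a storage disease, in many cases with neurodegeneration and reactive microglia. Many lysosomal genes are known targets of the transcription factors TFEB and TFE3, which bind a short palindrome called the CLEAR element. Microglia are rich in lysosomes and degrade cell debris and amyloid taken up at plaques.

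Bulk libraries held 16658707 to 22355512 counts. Whether each came from its own mouse is not spelled out in the labels, and p-values therefore cover the variation among these libraries, which may be technical. Atg7 itself stood at 24.3 ± 2.09 CPM in control and 24.4 ± 1.32 CPM in cKO forebrain (SD, n = 6 and 7), but counts over the whole gene in mixed tissue do not check a deletion in microglia. Control library 5 and cKO library 5 stood apart for several of the 38 genes, and values without both are given beside the genes that they touch most. The control single-cell library held 9314315 UMIs over 6633 barcodes and the cKO library 40701821 UMIs over 9840 barcodes, of which 6225 and 7493 were microglia-like cells. All 20 microglia markers were detected in these cells, while 10 neuronal markers summed to 4.40 and 11.2 CPM and 7 neutrophil markers to 0 and 0.0524 CPM. Other lists were higher. Astrocyte markers summed to 163.3 and 179.3 CPM (Slc1a3 161.3 and 174.2). Oligodendrocyte markers summed to 116.6 and 117.5 CPM, most of it Mbp, Mag and Cnp. Endothelial markers summed to 58.1 and 53.6 CPM (mostly Pecam1) and B cell markers to 40.2 and 41.4 CPM (mostly Cd79b). The matrices shared 22 barcodes, 0.332% of the control barcodes, and 11 of them passed the cell filters.

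Promoter windows of 300 bases (250 before and 50 after the start site) were read from RefSeq on GRCm38.p6 for 35 of the 38 genes; Aga, Asah1 and Npc1 had none. The CLEAR core TCACGTGA, searched on both strands, was present in the windows of 3 of these 35 genes (8.57%) against 1.12% of all 27025 genes with a window. These 3 genes were Gla (alpha-galactosidase A), Cln3 (a membrane protein mutated in juvenile Batten disease) and Mcoln1 (the lysosomal calcium channel TRPML1). The shorter E-box CACGTG, which every CLEAR core contains, was present in 10 of 35 (28.6%) against 8.09% of all genes. The 10 were Glb1, Gaa, Gla, Naglu, Sgsh, Arsa, Lgmn, Lamp1, Cln3 and Mcoln1. The core GAGGAAGT of the myeloid factor PU.1 was present in 2 of 35, Gusb and Gla (5.71%), against 3.69% of all genes. The 4 CLEAR matches are printed with the core in capitals, on the strand of the gene, since they mark the members with the motif of the known lysosomal regulator. The matches begin 228 and 195 bases before the start of Gla (chrX:134601215-134601244 and chrX:134601182-134601211, minus strand), 122 bases before that of Cln3 (chr7:126583340-126583369, minus strand) and 46 bases before that of Mcoln1 (chr8:3500462-3500491, plus strand).
Gla, upstream match: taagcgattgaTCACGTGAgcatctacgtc
Gla, downstream match: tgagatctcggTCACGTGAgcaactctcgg
Cln3: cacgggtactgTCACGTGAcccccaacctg
Mcoln1: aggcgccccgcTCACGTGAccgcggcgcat

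None of the 3 motifs was found in the windows of Laptm5, Cd68, Man2b1 and Grn, the members that fell in forebrain, or of Lipa, the member that was furthest from equal in sorted microglia. Only exact matches were counted, so shorter or variant forms of these motifs may be present. To show the sequence behind changed genes, the 250 bases before the start site are printed for 3 of these 5 genes. No annotated exon lies in these bases for any of the 3 genes. They are Cd68 (chr11:69666171-69666420, minus strand), Man2b1 (chr8:85083019-85083268, plus strand) and Lipa (chr19:34527475-34527724, minus strand), and they carry no capitals because no motif was matched.
Cd68: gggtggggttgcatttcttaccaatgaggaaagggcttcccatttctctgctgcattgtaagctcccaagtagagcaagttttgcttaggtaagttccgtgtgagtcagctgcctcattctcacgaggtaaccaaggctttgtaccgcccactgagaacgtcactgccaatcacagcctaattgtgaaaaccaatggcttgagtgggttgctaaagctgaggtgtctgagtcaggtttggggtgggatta
Man2b1: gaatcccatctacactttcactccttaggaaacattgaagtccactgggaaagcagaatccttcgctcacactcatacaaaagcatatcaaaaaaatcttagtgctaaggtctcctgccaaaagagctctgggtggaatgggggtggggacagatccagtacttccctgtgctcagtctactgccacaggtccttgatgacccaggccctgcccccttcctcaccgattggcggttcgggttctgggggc
Lipa: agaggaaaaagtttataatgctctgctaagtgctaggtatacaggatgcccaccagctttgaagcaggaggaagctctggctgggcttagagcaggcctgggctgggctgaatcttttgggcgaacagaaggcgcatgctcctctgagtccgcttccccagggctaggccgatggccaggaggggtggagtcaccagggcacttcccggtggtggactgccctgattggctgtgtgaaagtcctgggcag

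The bulk comparison asked how the forebrain with amyloid differs between cKO and control. Of the 38 genes 4 fell in cKO forebrain, none rose, and 34 did not pass the threshold. The 4 were the membrane proteins Laptm5 and Cd68, the alpha-mannosidase gene Man2b1 and the progranulin gene Grn, which fell by 0.30 to 0.51 on the log2 scale. Calls were made with edgeR's quasi-likelihood test, two-sided, at a Benjamini-Hochberg adjusted p under 0.05 over 16956 genes, among which 0.277% fell, 0.0531% rose and 0.33% were called in either direction. At an unadjusted p under 0.05 the test gave 11 of the 38 lower and 0 higher, against 4.19% and 3.52% of all genes tested. DESeq2 and limma-voom called the same 4 genes lower and none higher. Every cKO library lay below every control library for 3 of the 38, and for 0.313% of all genes. None of the 38 showed the opposite separation, against 0.13% of all genes. The log2 change was below 0 for 26 of the 38, against 49.4% of all genes, and its median was -0.04 against 0.002. Without control 5 and cKO 5, 26 of the 38 log2 changes were again below 0. In that fit 10 of the 38 were lower at an unadjusted p under 0.05 in edgeR, with 0 higher. The shares over all genes at these limits were not counted for that fit. At an adjusted p under 0.05 edgeR there called 3 of the 38 lower, beside 39 lower and 7 higher among 17009 genes. In bulk tissue, fewer cells of a type and less RNA per cell cannot be told apart.

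Laptm5 encodes a transmembrane protein of lysosomes in blood and immune cells (chromosome 4, 130913125 to 130936141). Its normalised level was 53.1, 60.6 and 80.9 CPM (counts scaled to library totals after TMM correction) as the lowest, median and highest control library, and 41.9, 43.1 and 47.9 CPM in cKO. All 7 cKO libraries lay below all 6 control libraries. The means were 62.6 ± 9.62 and 43.9 ± 2.06 CPM (SD, n = 6 and 7), a log2 change of -0.51 (SE 0.07, edgeR's quasi-likelihood test, adjusted p = 0.000837). Control library 5 was the highest at 80.9 CPM, with the next at 63.1 CPM. Without control 5 and cKO 5 the log2 change was -0.41 and the gene was still called (adjusted p = 5.88e-05).

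Cd68 encodes macrosialin, a heavily glycosylated membrane protein of macrophage lysosomes that is widely stained to show phagocytic microglia (chromosome 11, 69664213 to 69666153). The control libraries had 13.4, 16.7 and 21.0 CPM as the lowest, median and highest, and the cKO libraries 9.76, 11.9 and 13.5 CPM. The lowest control and the highest cKO library differed by less than 1 CPM and overlapped, while 5 of the 6 control libraries lay above all cKO libraries. The means were 16.6 ± 2.68 and 11.9 ± 1.23 CPM, a log2 change of -0.47 (SE 0.10, edgeR's quasi-likelihood test, adjusted p = 0.0304). The call rested on single libraries. It was kept in 5 of 13 fits that left out 1 library each and lost without control 1, 2, 3 or 5 or cKO 2, 3, 4 or 7, with edgeR adjusted p values from 0.0159 to 0.107. Without control 5 and cKO 5 together the log2 change was -0.39 (edgeR, adjusted p = 0.0892).

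Man2b1 encodes the lysosomal alpha-mannosidase, whose loss causes alpha-mannosidosis (chromosome 8, 85083270 to 85098282). It stood at 57.6, 65.4 and 68.0 CPM in the lowest, median and highest control library and at 47.2, 51.6 and 55.3 CPM in cKO. The groups did not overlap. The means were 64.0 ± 3.99 and 51.2 ± 2.89 CPM, a log2 change of -0.32 (SE 0.05, edgeR's quasi-likelihood test, adjusted p = 0.00414).

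Grn encodes progranulin, a secreted and lysosomal protein that is cut into granulins and whose loss causes frontotemporal dementia or a lipofuscinosis (chromosome 11, 102430315 to 102437048). It stood at 69.8, 73.9 and 84.3 CPM in the lowest, median and highest control library and at 58.0, 60.4 and 65.6 CPM in cKO. All cKO libraries again lay below all control libraries. The means were 74.9 ± 5.13 and 60.7 ± 2.56 CPM, a log2 change of -0.30 (SE 0.05, edgeR's quasi-likelihood test, adjusted p = 0.00414). Exons of the gene on the opposite strand cover 2.0% of the exonic bases of Grn, and the strand setting of the counting is not given. Laptm5, Man2b1 and Grn were called in all 13 fits that left out 1 library, and also without control 5 and cKO 5, where the log2 changes of Man2b1 and Grn were -0.31 and -0.28.

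**Figure D1:**
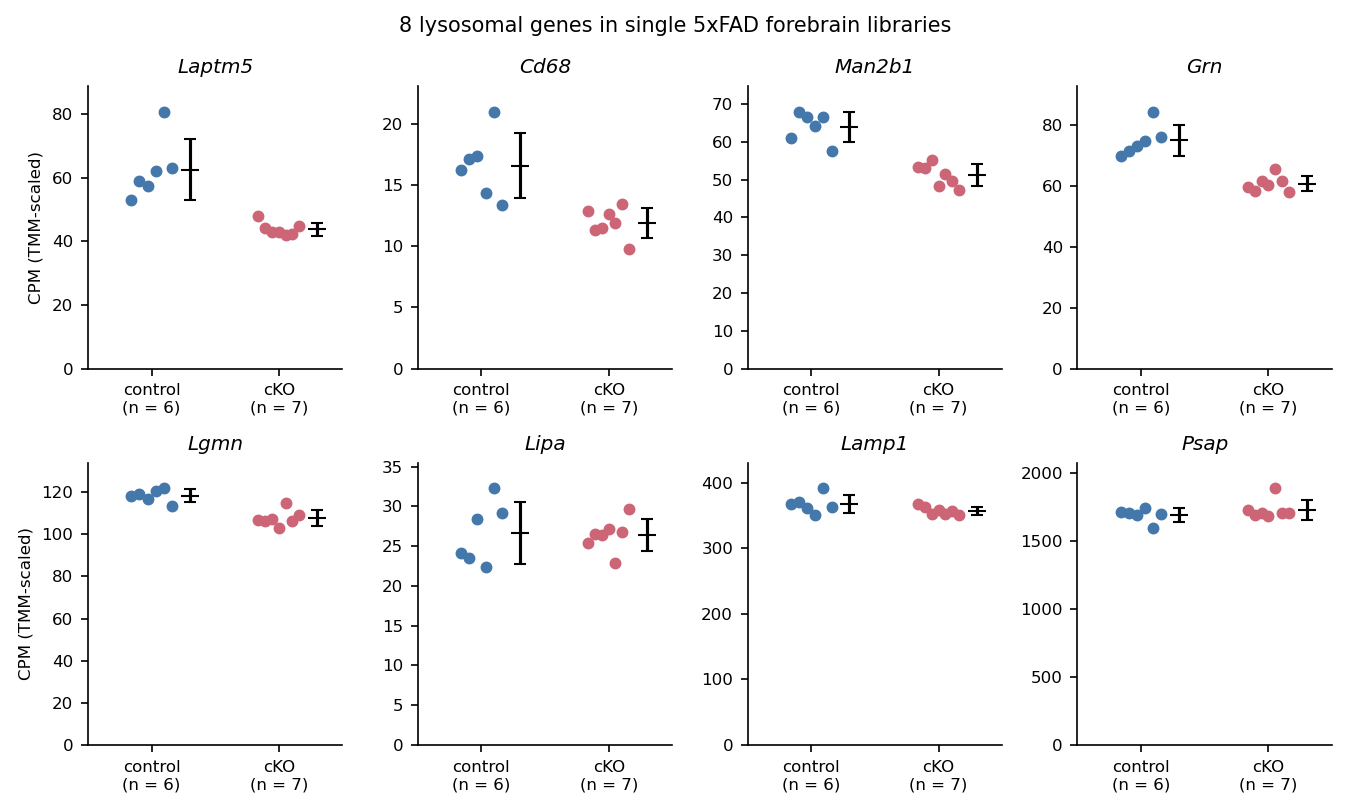
Points show single 5xFAD forebrain libraries of 6 control and 7 cKO samples, with the mean and SD beside them, as TMM-scaled CPM on axes that start at 0. Laptm5, Man2b1 and Grn separate the groups, Cd68 overlaps at 13.4 to 13.5 CPM, and Lgmn, Lipa, Lamp1 and Psap overlap and were not called.

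Among the 13 glycosidases and glycoprotein enzymes Man2b1 was the only one called, and 8 of 13 had a log2 change below 0. Gusb (beta-glucuronidase) had a log2 change of -0.25, with 18.3, 20.6 and 26.5 CPM in the lowest, median and highest control library and 14.8, 18.4 and 20.4 CPM in cKO. Hexa, the alpha subunit of beta-hexosaminidase, had a change of -0.22, at 60.3 ± 6.38 against 52.0 ± 5.41 CPM. Glb1, the beta-galactosidase behind the staining used to mark senescent cells, had a change of -0.18, at 25.9 ± 1.67 against 22.8 ± 1.57 CPM. In each of these 3 genes the groups overlapped, and edgeR gave adjusted p values of 0.503, 0.469 and 0.478. The alpha-glucosidase gene Gaa stood at 426.3 ± 11.6 and 438.4 ± 32.2 CPM (0.04), and the remaining members Manba, Gla, Galc, Naglu, Idua, Neu1, Fuca1 and Aga lay between -0.13 (Naglu) and 0.11 (Idua). Idua, the alpha-iduronidase gene, had the largest log2 change above 0 of all 38 and was not called (15.1, 15.9 and 17.4 CPM in control against 14.8, 17.7 and 19.9 CPM in cKO, edgeR adjusted p = 0.739). Exons of other genes cover 12.8% of the exonic bases of Hexa, 6.3% of Idua and 5.5% of Glb1.

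None of the 4 sulfatases was called by edgeR, DESeq2 or limma-voom, and 1 was lower at an unadjusted p under 0.05. Ids, the iduronate sulfatase gene, had a log2 change of -0.16, with 510.1, 555.7 and 648.3 CPM in control and 427.2, 523.9 and 580.9 CPM in cKO as the lowest, median and highest library (edgeR, adjusted p = 0.564). Its lowest cKO and highest control values both came from libraries numbered 5, and without these 2 libraries the change was -0.07. Arsa (arylsulfatase A) stood at 26.3, 33.2 and 36.2 CPM in control and 30.4, 34.1 and 43.2 CPM in cKO, a change of 0.10 (edgeR, adjusted p = 0.793). Without control 5 and cKO 5 the change of Arsa was -0.01. Arsb had a change of -0.05 and Sgsh of 0.03 (-0.08 without the 2 libraries), and exons of other genes cover 39.9% and 21.6% of their exonic bases, and 18.8% of those of Arsa.

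None of the 4 lipid hydrolases was called in the forebrain by these 3 tools, 0 passed an unadjusted p of 0.05 in edgeR, and their log2 changes were -0.07 to 0.08. Lipa, the acid lipase that frees cholesterol and fatty acids from lipoproteins, stood at 22.4, 26.3 and 32.3 CPM in control and 22.9, 26.6 and 29.6 CPM in cKO, with a change of -0.01 (SE 0.08, edgeR, adjusted p = 0.982). The cKO range lay within the control range, and without control 5 and cKO 5 the change was 0.09 (edgeR, adjusted p = 0.994). Asah1 (acid ceramidase), Smpd1 (acid sphingomyelinase) and Pla2g15 (lysosomal phospholipase) had changes of -0.07, 0.04 and 0.08, with edgeR adjusted p values of 0.816, 0.853 and 0.794.

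The lipid transfer and activator proteins held no call by any of the 3 tools and 0 genes past an unadjusted p of 0.05 in edgeR. Psap, whose precursor is cut into the saposins that activate sphingolipid hydrolases, had the highest level per length of the 38 genes, 617.1 ± 17.9 CPM per kilobase of exon in control forebrain. In cKO forebrain that level was 630.3 CPM per kilobase, and the log2 change was 0.03 (edgeR, adjusted p = 0.855). Control 5 was its lowest control library and cKO 5 its highest cKO library, and without them the change was -0.00. The next levels per kilobase in control forebrain were 137.3 for Lamp1 and 111.1 for Ids, and the lowest was 1.83 for Manba. Gm2a, the activator of ganglioside breakdown, had a change of -0.05, Npc1 of -0.06 and Npc2 of -0.10, both of them carriers that move cholesterol out of lysosomes. Npc2 was below the lowest control library (62.0 CPM) in 5 of 7 cKO libraries and above the highest (66.2 CPM) in cKO library 5, at 73.7 CPM. Without control 5 and cKO 5 its change was -0.16 (edgeR, adjusted p = 0.365).

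In the protein turnover genes Grn was called, and Lgmn was not. Lgmn encodes legumain, the asparagine endopeptidase that also activates cathepsins. Its libraries had 113.5, 118.7 and 121.9 CPM in control and 102.9, 107.0 and 115.1 CPM in cKO, so that only cKO library 5 reached the control range. The log2 change was -0.14 (SE 0.04, edgeR's quasi-likelihood test, adjusted p = 0.318). With an offset for GC content and length of the genes, the same test gave a 5th call, which was Lgmn. Tpp1 (tripeptidyl peptidase) had a change of -0.02 and Ppt1 (the thioesterase that removes palmitate from proteins) of 0.03.

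Of the 9 membrane proteins 2 fell and 8 had a log2 change below 0. Lamp2, one of the most abundant lysosomal membrane glycoproteins and the receptor of chaperone-mediated autophagy, stood at 103.6, 113.5 and 128.4 CPM in control and 88.2, 103.8 and 107.8 CPM in cKO. Its change of -0.19 was not called (edgeR, adjusted p = 0.303). Lamp1, the related glycoprotein, stood at 350.5 to 391.5 CPM in control and 350.6 to 367.6 CPM in cKO, a change of -0.04. Tmem106b, a risk gene for frontotemporal dementia, had a change of -0.14, with 305.2 CPM in control 5 and 192.0 CPM in cKO 5 outside the 231.9 to 258.4 CPM of all other libraries. Without these 2 libraries the change of Tmem106b was -0.04 and that of Lamp2 was -0.12. Scarb2, the receptor that carries glucocerebrosidase to lysosomes, had a change of -0.08, Cln3 of -0.04, and the tetraspanin gene Cd63 of -0.02. Mcoln1 stood at 62.6, 65.1 and 66.5 CPM in control and 64.4, 68.0 and 77.0 CPM in cKO, a change of 0.10 that was not called (edgeR, adjusted p = 0.662).

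**Figure D2:**
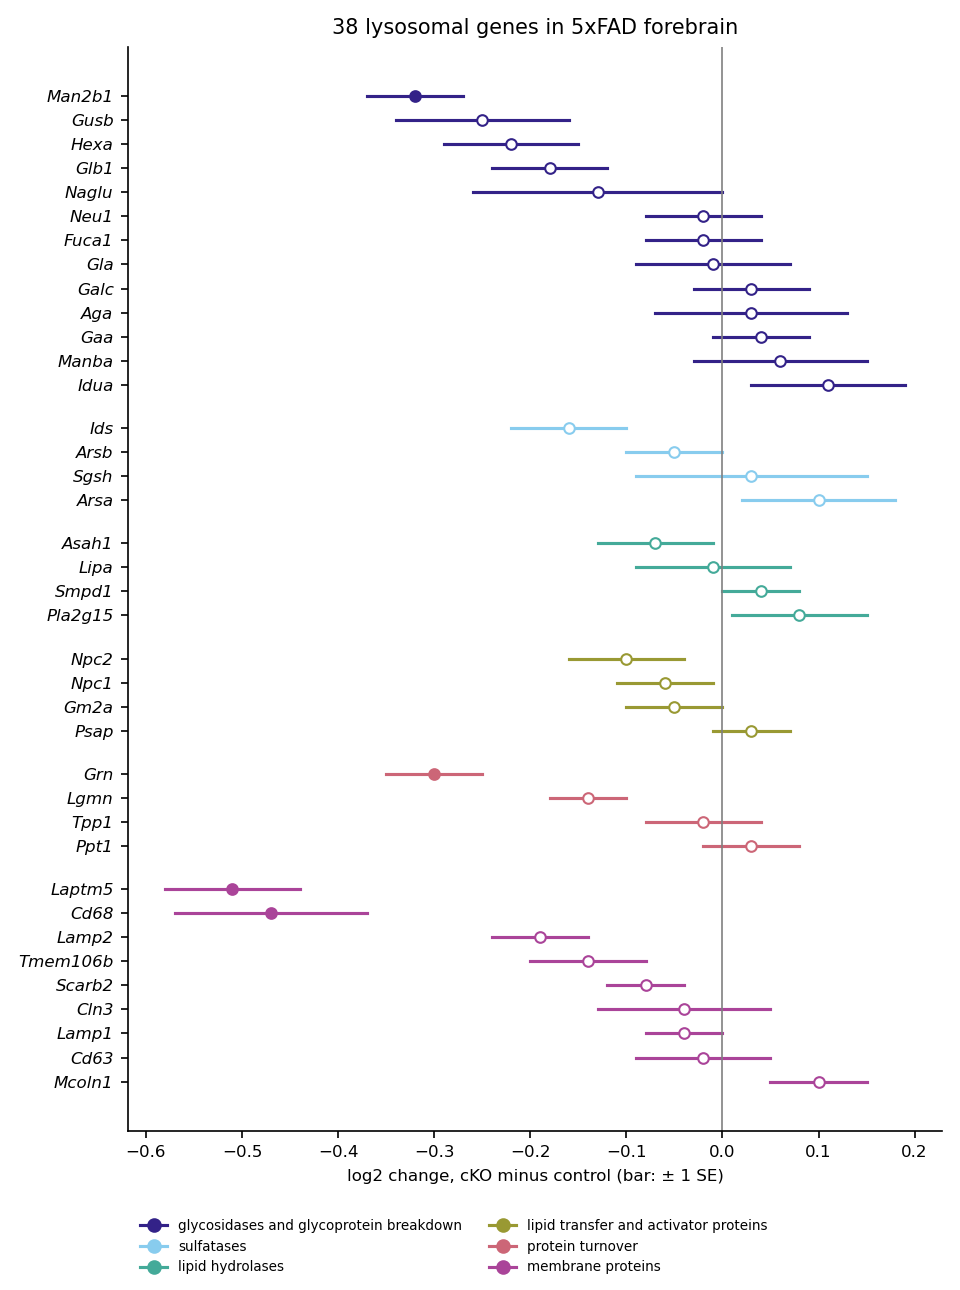
Each circle is the log2 change of 1 of the 38 genes in 5xFAD forebrain, cKO minus control (6 and 7 libraries), with a bar of 1 SE on each side and genes ordered by size within their role. The 4 filled circles are the genes with an adjusted p under 0.05, all at or below -0.30, and the highest circle is Idua at 0.11.

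Summed over the 38 genes, control forebrains had 5049 to 5230 CPM and cKO forebrains 4824 to 5066 CPM, so the sums overlapped, as they did without control 5 and cKO 5 (5049 to 5104 and 4824 to 5066 CPM). The sum for protein turnover genes was 361.4 to 388.7 CPM in control and 349.1 to 353.9 CPM in cKO, without overlap. Its 4 genes had log2 changes of -0.30 (Grn), -0.14 (Lgmn), -0.02 (Tpp1) and 0.03 (Ppt1). The sums of the other roles overlapped, with lipid hydrolases at 209.8 to 236.2 CPM in control and 211.1 to 231.4 CPM in cKO. Outside the 38 genes, cathepsins also summed to separate ranges, 1362.9 to 1524.1 CPM in control and 1236.4 to 1338.2 CPM in cKO. So did all 68 other lysosomal genes described below, at 5404 to 5693 and 5211 to 5311 CPM. Sums of further hydrolases, further membrane proteins, delivery proteins and the TFEB family overlapped. How often sums over sets drawn from all genes separate was not counted. The median member deviated by -0.031 to 0.041 (log2, from the control mean) in single control libraries and by -0.073 to -0.028 in cKO libraries, so that cKO 1 lay within the control range and the other 6 below it.

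Microglia markers were also lower in cKO forebrain. Of 20 markers 15 fell, against 0.277% of all genes. Over all 20 the median log2 change was -0.65. Every cKO library lay below every control library for 14 of them, against 0.313% of all genes. The summed level was 778.5 to 936.6 CPM in control and 517.7 to 549.7 CPM in cKO. The markers that fell included Trem2 (-0.96), Csf1r (-0.56) and Cx3cr1 (-1.37), the locus that holds the Cre allele. No gene of the lists for border macrophages, monocytes, neutrophils, lymphocytes, neurons, astrocytes, oligodendrocytes and their precursors, vessels, ependyma or blood was called by edgeR. At an unadjusted p under 0.05 edgeR had 3.52% of all genes higher and 4.19% lower. In these lists it gave 2 of 8 tested border macrophage markers higher and 2 of 9 oligodendrocyte markers lower. It also gave 1 lower marker each among 3 tested for monocytes, 3 for neutrophils, 8 for astrocytes, 7 for endothelial and 5 for mural cells. Of the genes in these lists DESeq2 called 1, the border macrophage marker Stab1, higher, and limma-voom 0. The summed border macrophage markers were 28.2 to 33.5 CPM in control and 30.3 to 37.5 CPM in cKO. The summed neuronal markers were 9559 to 9977 CPM in control and 9021 to 9917 CPM in cKO, and the summed oligodendrocyte markers 5529 to 5877 and 4927 to 5692 CPM. How far a lower microglial RNA share accounts for the lower lysosomal genes was not tested.

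The enrichment of a gene in microglia was described as a ratio. It divided the level in control sorted microglia (CPM of UMIs) by the mean level in the 13 forebrain libraries (TPM, per length). Length here was the annotated exonic bases of a gene, for example 1257 for Cd68, 5438 for Npc2 and 8026 for Man2b1. A greater length lowers the TPM and raises the ratio, so ranks depend on it. Lengths of the transcripts in use were not measured. Sorted microglia came from mice without amyloid transgenes, and the forebrain libraries from mice with them. The ratio ran from 0.104 for Ids to 51.9 for Laptm5. The 10 members with the highest ratios, from 7.64 up, were Laptm5, Man2b1, Cd68, Npc2, Lgmn, Grn, Gusb, Lamp2, Cln3 and Cd63. They held all 4 called members, all 10 had a log2 change below 0, and their median change was -0.22. The other 28 members had ratios of 0.104 to 7.34, no call, 16 changes below 0 and a median of -0.02. Across the 38 genes the ratio and the bulk log2 change had a Spearman correlation of -0.53 and a Pearson correlation of -0.53. This describes genes, which are not independent replicates, and the forebrain level and the change share the same 13 libraries. The cKO-to-control ratio within sorted microglia and the forebrain change had Spearman and Pearson correlations of 0.25 and 0.26 over the same genes. Among the 20 microglia markers the ratio ran from 9.91 (Sall1, log2 change -0.05) to 165.2 (Itgam, -0.76).

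**Figure D3:**
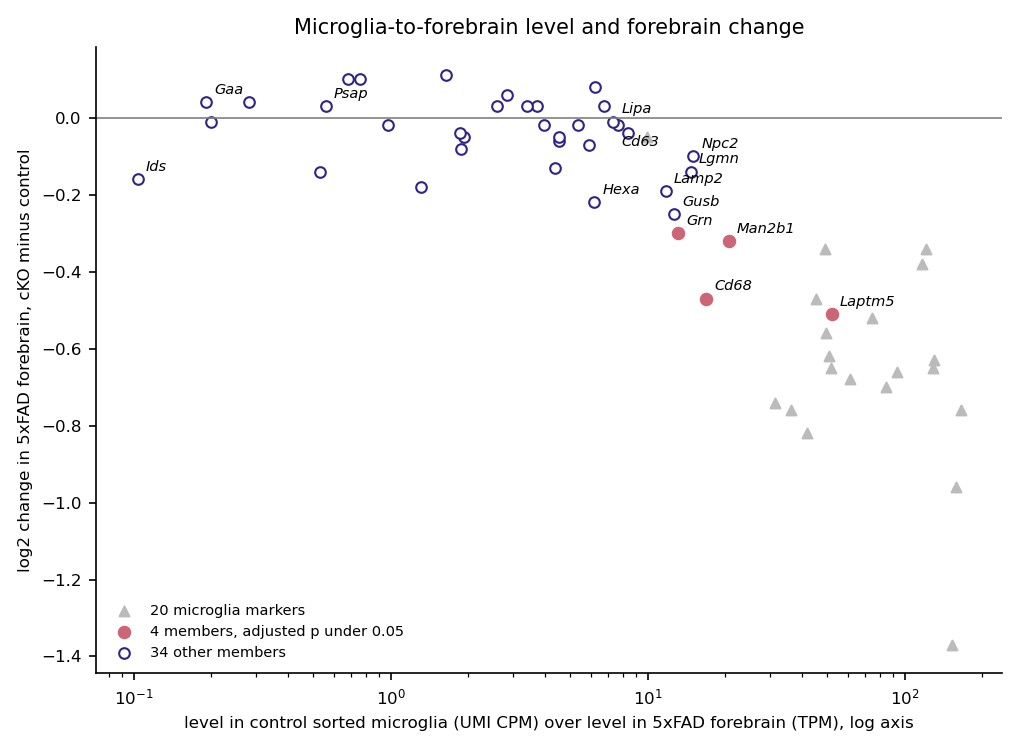
The horizontal log axis gives each gene's UMI CPM in control sorted microglia divided by its mean TPM in 5xFAD forebrain, and the vertical axis its log2 change in forebrain, cKO minus control. The 4 called members (filled circles) lie at ratios of 13.1 to 51.9, the 34 other members (open circles) reach down to 0.104, and grey triangles are the 20 microglia markers.

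The other lysosomal genes were 68 in 5 lists, namely further hydrolases, further membrane proteins, proteins that deliver enzymes to lysosomes, cathepsins and the TFEB family. Of the 65 tested 4 fell and none rose, against 0.277% and 0.0531% of all genes, with a median log2 change of -0.03. At an unadjusted p under 0.05 edgeR gave 11 of the 65 lower and 0 higher, against 4.19% and 3.52% of all genes. Of these 11, 7 were cathepsins and 3 further hydrolases. Every cKO library lay below every control library for 5 of the 65, against 0.313% of all genes. Among the further hydrolases the phospholipase family gene Pld4 fell from 9.46 ± 1.23 to 6.70 ± 0.677 CPM (-0.50, edgeR adjusted p = 0.0261). Of 11 cathepsins Ctsd fell (-0.36, edgeR adjusted p = 0.00614) and Ctss fell (-0.74, edgeR adjusted p = 5.91e-08). Ctss is also in the list of microglia markers. None of 18 further membrane proteins, 13 delivery proteins or 3 tested genes of the TFEB family was called by edgeR, DESeq2 or limma-voom, and 0, 1 and 0 of them passed an unadjusted p of 0.05 in edgeR. DESeq2 also called Dnase2a and the cathepsin gene Ctsc lower.

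The single-cell comparison asked how the same genes differ between cKO and control microglia, in mice without amyloid. Levels are UMIs summed over microglia-like cells, as CPM of 9087230 control and 38163063 cKO UMIs, and the intervals reflect counting error alone. A single library stood for each genotype, so no test is possible and the values compare 2 libraries. Of the 38 genes 37 reached 20 CPM in at least 1 library, Manba only through the cKO library (19.8 and 22.9 CPM), and Gla stayed below at 3.52 and 4.66 CPM. Lipa alone was at least 1.5-fold higher in cKO and none was at least 1.5-fold lower, against 1.79% and 1.35% of 6743 genes past the same limit, or 3.14% in either direction. Of the 37 genes 16 had a ratio above 1 and 21 below, against 60.1% of all genes above 1. The median log2 ratio was -0.02 against 0.04 for all genes.

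Lipa stood at 107.7 CPM (95% counting interval 101.1 to 114.7) in control and 200.8 CPM (196.3 to 205.3) in cKO microglia, a ratio of 1.86 (1.74 to 1.99). In 5xFAD forebrain the log2 change of Lipa was -0.01. Gm2a followed with 114.0 and 157.1 CPM (ratio 1.38, 1.29 to 1.47) and Cd63 with 406.4 and 549.0 CPM (1.35, 1.30 to 1.40). Ids had a ratio of 1.31 (1.18 to 1.47). These 4 genes had log2 changes of -0.16 to -0.01 in forebrain, and of -0.09 to 0.09 without control 5 and cKO 5.

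The lowest ratios belonged to Gaa, Grn and Arsb. Gaa stood at 64.7 and 53.9 CPM (0.833, 0.759 to 0.914), Arsb at 161.3 and 135.9 CPM (0.842, 0.795 to 0.893), and Grn at 948.3 and 790.4 CPM (0.834, 0.814 to 0.854). Of the 4 genes that fell in forebrain, Grn, Man2b1 (0.869, 0.842 to 0.897) and Cd68 (0.902, 0.878 to 0.928) had ratios below 1 with counting intervals that did not reach 1, all within 1.5-fold.

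Laptm5, Lgmn and Psap had the most UMIs of the 38 genes in microglia, on a scale that counts transcript ends and does not grow with transcript length. Laptm5 stood at 2699 CPM in control and 2743 CPM in cKO microglia, a ratio of 1.02 (1.00 to 1.03). With both profiles scaled by the median ratio of all genes its ratio was 0.985. Its log2 ratio of 0.02 in sorted microglia stands beside a log2 change of -0.51 in forebrain, from different mice, with and without amyloid. Lgmn stood at 2668 and 2282 CPM (0.855, 0.843 to 0.868) and Psap at 1307 and 1424 CPM (1.09, 1.07 to 1.11).

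By role, the summed level of the 4 protein turnover genes was 4116 CPM in control and 3559 CPM in cKO microglia, a ratio of 0.865, with all 4 ratios below 1. Glycosidases and glycoprotein enzymes summed to 1962 and 1748 CPM (0.891), with 7 of the 12 past the limit below 1, among them Hexa (646.8 and 559.5 CPM, 0.865). Lipid hydrolases summed to 700.8 and 777.2 CPM (1.11), and lipid transfer and activator proteins to 2190 and 2364 CPM (1.08), with only Npc2 below 1 (0.989). Membrane proteins summed to 5624 and 5853 CPM (1.04), with Lamp1 at 1.14 (1.11 to 1.16) and Lamp2 at 0.956 (0.925 to 0.988). Sulfatases summed to 250.2 and 239.2 CPM (0.956), split between Ids above and Arsb below 1. These role sums lay between 0.865 and 1.11, and the sum over all 38 genes was 14843 and 14541 CPM, a ratio of 0.980 (0.974 to 0.985). Per cell, the 38 genes took a median of 1.47% of UMIs in control and 1.44% in cKO microglia, or 1.5% and 1.4% after thinning each cell to 1000 UMIs, which left out 587 and 78 shallower cells.

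**Figure D4:**
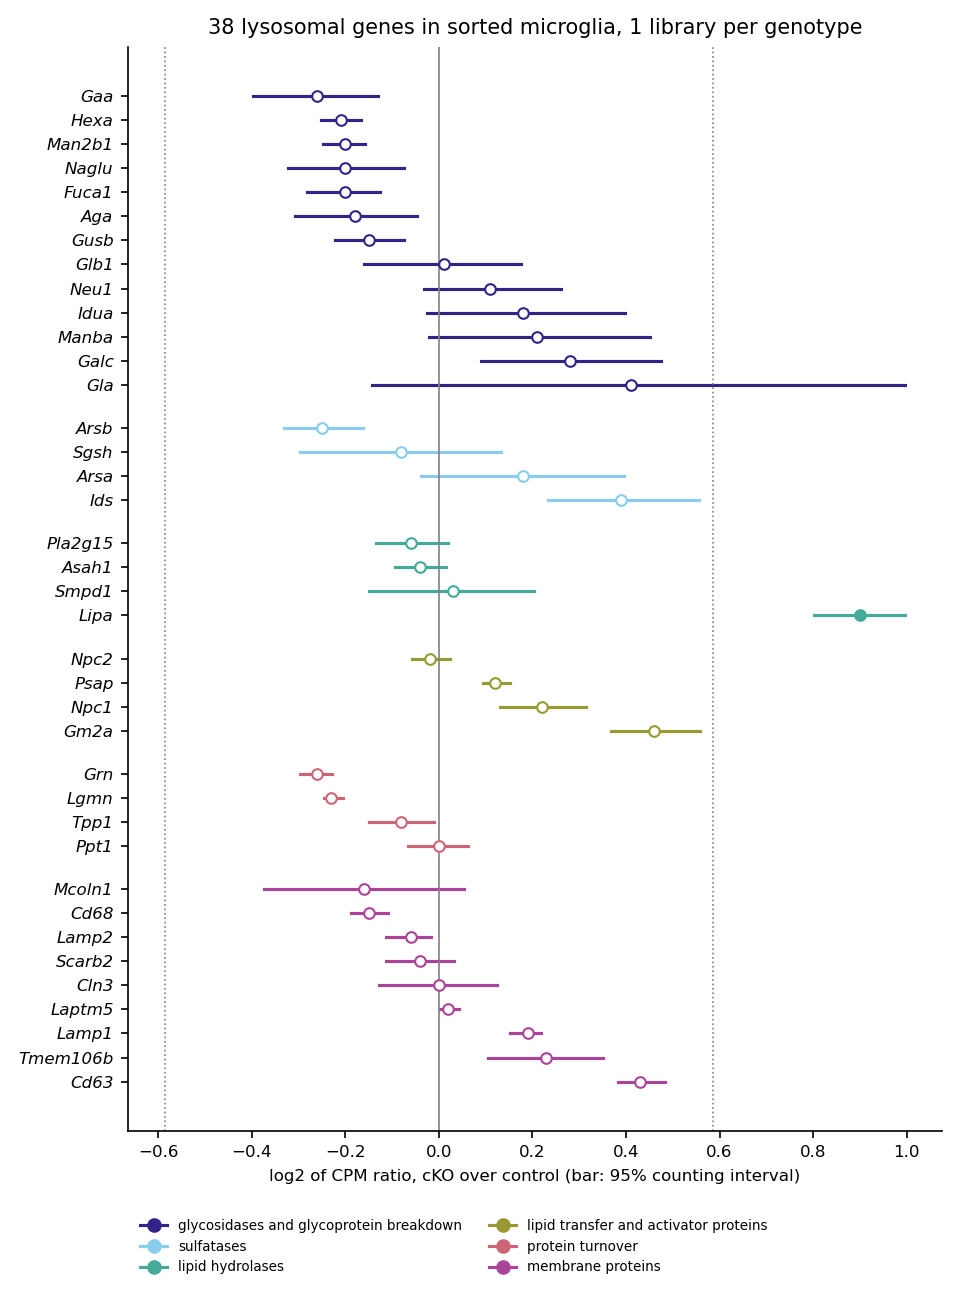
Each circle is the log2 ratio of CPM in sorted microglia, cKO over control (1 library each), for 1 of the 38 genes, with a bar for the 95% counting interval and dotted lines at 1.5-fold. Lipa, the filled circle, lies past the upper line at 0.90, and Gla, with the widest bar, stayed below 20 CPM in both libraries.

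The low-UMI cluster 3, which held 1347 cKO and 3 control cells (15.2% of cKO cells), was left out although all 20 microglia markers were detected in it. The libraries differed in depth, with a median of 1391 UMIs per control and 4836 per cKO microglia-like cell, and in the clusters that held their cells. Cluster 0, led by Fos and Calr, held 92.7% of control and 2.20% of cKO cells, and cluster 1, led by histone genes, held 4.97% and 61.0%. Cluster 2, led by Apoe and Lyz2 and with Lipa, Cd63 and Gm2a among its leading genes, held 0.753% and 18.3%. Within cluster 0 the ratio of Lipa was 1.65 (1.32 to 2.04) and within cluster 1 it was 1.73 (1.38 to 2.20). Cd63 had 1.23 (1.08 to 1.39) and 1.59 (1.39 to 1.83) in these clusters, and Gm2a 1.26 (0.989 to 1.60) and 1.24 (0.996 to 1.57). Within cluster 0 Glb1 and Mcoln1 also passed 1.5-fold (1.58, 1.08 to 2.25, and 1.58, 0.968 to 2.45), and within cluster 1 Cd63 and Galc (1.55, 0.933 to 2.77). That makes 3 members at least 1.5-fold higher and 0 lower in each cluster. Among all genes past 20 CPM 5.81% were higher and 12.2% lower by this fold within cluster 0, and 5.61% and 6.39% within cluster 1. Grn had ratios of 0.982 (0.895 to 1.07) and 0.901 (0.831 to 0.978) within clusters 0 and 1, and Lgmn 0.987 (0.935 to 1.04) and 0.920 (0.877 to 0.965). For Grn and Lgmn the value within cluster 0 lay nearer to 1 than the value over all microglia-like cells, and its interval included 1. Hexa, at 0.865 over all microglia-like cells, had ratios above 1 within clusters 0 and 1. They were 1.162 (1.049 to 1.285) and 1.09 (0.980 to 1.216). Cd68 had 0.954 (0.855 to 1.06) within cluster 0 and 0.98 (0.89 to 1.08) within cluster 1, and both intervals included 1. Man2b1 had 0.84 (0.74 to 0.96) and 0.84 (0.76 to 0.93) there, with intervals below 1. Summed over the 38 genes the ratio was 1.02 within cluster 0 and 1.01 within cluster 1. These values rest on 195 cKO cells in cluster 0 and 310 control cells in cluster 1.

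Markers of border macrophages, which also carry active Cx3cr1, summed to 181.8 CPM in control and 231.9 CPM in cKO microglia-like cells, most of it Stab1 (175.5 and 217.0 CPM). Mrc1 stood at 4.73 and 12.97 CPM, and Lyve1 and Cd163 had 0 UMIs in both libraries. Monocyte markers summed to 11.6 and 7.49 CPM, with Ly6c2 at 0 in both. The part of other cells in the ratio of Lipa was not tested. Among the other lysosomal genes 55 of 68 passed the 20 CPM limit. Slc11a1, the gene for the phagosomal metal transporter NRAMP1, was the only one past 1.5-fold (165.7 and 296.1 CPM, 1.79, 1.69 to 1.89). Of the 20 microglia markers Cx3cr1 was the only one past 1.5-fold, and it was lower in cKO (log2 ratio -0.92).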

How the data were processed

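For single cells the authors deposited UMI counts. Per the file headers these came from Cell Ranger 6.1.0, and the chemistry was 10x 3' v3 per the labels. Bulk values are whole read counts per Ensembl gene, deposited without normalization, and the submitters' processing notes name mm10, HISAT2 2.0.5 and featureCounts 1.5.0-p3. Strand setting and annotation release: not given in the sources used here. No per-sample column was left unused (0).

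Bulk counts were tested in R 4.3.3 with edgeR 4.0.16 (filterByExpr, TMM factors, robust quasi-likelihood F-test on genotype, 13 libraries, Benjamini-Hochberg over 16956 genes, threshold 0.05). The biological coefficient of variation was 10%, and libraries of a group differed by more than sampling noise (chi-square per degree of freedom at least 2.75). Across genes the log2 change had a Spearman correlation of 0.36 with GC content and -0.21 with length, so an offset for both was an alternative, beside RLE factors, DESeq2 1.42.0, limma-voom (limma 3.58.1), other filters, a replicate block and leaving out each library. CPM are on TMM-scaled totals. Positions, lengths and overlaps are from GENCODE M21 on GRCm38, the assembly called mm10, and promoter sequences from RefSeq on GRCm38.p6.

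Python 3.11.15 and scanpy 1.11.5 were used for single cells. Filters of at least 500 genes and no more than 10% mitochondrial UMIs kept 6243 control and 8874 cKO cells, which were scaled to 10000 UMIs and clustered together (2000 variable genes, 30 components, 15 neighbours, Leiden resolution 0.5, no integration, no doublet caller, no doublets removed). Clusters were called microglia-like when at least 3 microglia markers were detected in 25% of cells, which all clusters met. A cluster of 1347 cKO and 3 control cells was left out for depth, at 0.249 of its own libraries' median UMIs (limit 0.333), while the next shallowest, at 0.349, was kept. Leading genes did not separate it, since no kept cluster had a microglia marker among its 10 either. A cluster led by the choroid gene Ttr was also left out. Intervals are exact at 95%. The bulk fit and the intervals were tested on simulated data first.

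The 38 members and all lists were chosen with earlier results of these data known. Members were named in full when called in forebrain, past 1.5-fold at 20 CPM in sorted microglia, among the 3 highest or lowest ratios there, the 3 largest log2 changes above 0 in forebrain, or the 3 highest microglial levels, and the rest by role. Up to 6 called genes were named from each other list. Some genes of the other lists are not reported here by name.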

Additional observations from a re-analysis of the deposited data

Results flagged for a closer look

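In 76 groups of values, the 38 genes in control and in cKO forebrain, the highest or lowest library was compared with its nearest neighbour relative to the range of its group, and 6 libraries stood apart by more than Dixon's 95% limit. Chance alone gives about 1 in 20 such groups. Of the 6, 5 came from control library 5 and cKO library 5. Laptm5 stood at 80.85 CPM in control 5, above the next control library at 63.1 CPM. Tmem106b stood at 305.2 CPM in control 5, above 258.4 CPM, and at 192 CPM in cKO 5, below 231.9 CPM. Psap stood at 1600.1 CPM in control 5, below 1693.7 CPM, and at 1889.8 CPM in cKO 5, above 1728.9 CPM. Pla2g15 stood at 21.17 CPM in control 2, below 24.03 CPM. For Psap and for Tmem106b, control 5 and cKO 5 deviated in opposite directions.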

How the results depend on the processing

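The count of 4 members that fell in forebrain was 4 with RLE factors, DESeq2, limma-voom and both other low-count filters, 5 with the GC and length offset, and 3 without control 5 and cKO 5, an alternative chosen after seeing the data, in which the log2 change of Arsa turned to -0.01. Leaving out 1 library at a time gave 3 to 4. With the replicate block, which needs cKO 7 left out, 0 members were called (edgeR adjusted p 0.053 for Laptm5 and for Grn, 0.0716 for Man2b1 and 0.44 for Cd68, log2 changes -0.50, -0.29, -0.30 and -0.42), and calls over all genes were 19 lower and 1 higher in place of 47 and 9. Same-numbered libraries deviated with correlations of -0.34 to 0.187, over 0.1 in 3 of 6 pairs, and in 1 of 6 the best match was its own number, so the numbers were not taken to pair samples. Over all genes the number that rose was 19 with DESeq2, 23 without a low-count filter and 23 without cKO 1. In sorted microglia the summed member ratio was 0.959 over all filtered cells, 0.957 over all barcodes, 0.986 for cells with at least 1000 genes, 0.95 with median-ratio scaling, 0.972 as a mean of per-cell CPM, 1.02 within cluster 0 and 1.01 within cluster 1. Members at least 1.5-fold higher were 3 within each of these clusters, against 5.81% and 5.61% of all genes there, the first cluster added after seeing the data. Depth limits single genes such as Gla, and 1 library per genotype limits every microglial ratio.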
